A study of Homo sapiens with 12 samples.

Results

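The genes for the proteins of the cytosolic ribosome, with their paralog copies, were read in bulk RNA of hydroxychloroquine (HCQ)-evolved and control cancer cells. Members were the rows of the count matrix whose symbol is RPL or RPS with a number and an optional A, X, L, L1 or AL, plus RPLP0, RPLP1, RPLP2 and RPSA. This gave 85 of 28278 rows, 53 with large subunit names and 32 with small subunit names. Left out were 31 pseudogene rows, 12 rows of RPS6K kinases and 7 readthrough, antisense, binding protein or Y-linked rows. Of the 85 genes, 80 passed the filter of a level of 1 CPM (counts scaled to library size) in 3 or more libraries in each cell line. RPL3L, RPL10L, RPL36A and RPL39L were among those that did not.

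Each ribosome has a large subunit, which joins amino acids, and a small subunit, which reads the message. Their proteins are needed in near-equal amounts, and their mRNAs mostly share a terminal oligopyrimidine (TOP) tract, a C followed by a run of C and T at the 5′ end. Through this tract the kinase complex mTORC1 and the RNA-binding protein LARP1 control their translation and stability. A few human genes have a second, expressed copy, such as RPL22L1 beside RPL22. HCQ blocks lysosomal breakdown and autophagy, by which cells also recycle ribosomes.

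Libraries came from 2 lines, labelled OVCAR3 (an ovarian cancer line) and CCL218 (a colorectal cancer line). HCQ-evolved cells had 15 pulses of 48 h and then 7 days without drug and are labelled passage 15. Control cells were passaged without HCQ and are labelled passage 19, so drug history and passage number cannot be told apart. Each of the 4 groups had 3 pools, L, M and R, each from a part of a 96-well plate, and p-values measure only the spread between these pools of 1 plate. In bulk RNA, fewer cells with a transcript and less of it per cell cannot be told apart.

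Depth ran from 31147822 to 59965861 counts per library, with TMM factors of 0.869 to 1.09. Pools differed along transcript length in every group. Across genes other than the members, Spearman's rho between a pool's deviation from its line's mean and transcript length ran from -0.50 in control CCL218 L to 0.55 in HCQ-evolved OVCAR3 R. Markers of the labelled tissues were mixed. Of 8 ovarian markers, 4 reached 1 CPM in all control OVCAR3 pools and 3 in all control CCL218 pools, and SOX17 had no count in any pool of either. Of 9 colorectal markers, 7 did so in both control groups, and their summed level was 255 to 349 CPM in control OVCAR3 and 297 to 339 CPM in control CCL218, with VIL1 at 180 to 290 CPM in these pools. It was 124 to 178 CPM in HCQ-evolved OVCAR3 and 390 to 461 CPM in HCQ-evolved CCL218. Between controls, 6 of the 7 colorectal markers tested were above 0 in CCL218, and CEACAM5 (1.49, adjusted p = 0.0137) and MUC2 (2.57, 0.0277) were higher, as was MSLN of the ovarian list (2.16, 0.0239, edgeR).

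Start sites are shown for the members on which the later results turn, with coordinates from the RefSeq promoter table (GRCh38.p14). Each line gives 15 bases before and 15 bases from the annotated start, on the gene's own strand. Capitals mark a run that begins with C at the start and holds at least 5 C or T.

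RPL21 (chr13:27251543-27251572, plus strand): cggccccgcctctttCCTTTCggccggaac
RPL27A (chr11:8682777-8682806, plus strand): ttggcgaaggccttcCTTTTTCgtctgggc
RPLP2 (chr11:809952-809981, plus strand): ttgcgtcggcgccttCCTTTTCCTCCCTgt
RPS13 (chr11:17077653-17077682, minus strand): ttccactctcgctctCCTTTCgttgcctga
RPS3 (chr11:75399503-75399532, plus strand): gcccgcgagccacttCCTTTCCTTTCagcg
RPL6 (chr12:112409271-112409300, minus strand): ggggagacggcgcgtgcactgtgttcctgg
RPL10A (chr6:35468386-35468415, plus strand): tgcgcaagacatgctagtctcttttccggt
RPL22L1 (chr3:170870181-170870210, minus strand): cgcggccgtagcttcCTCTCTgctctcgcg
RPL7L1 (chr6:42879601-42879630, plus strand): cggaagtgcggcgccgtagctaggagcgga
RPL26L1 (chr5:172958714-172958743, plus strand): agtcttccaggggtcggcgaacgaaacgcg
RPS27L (chr15:63157463-63157492, minus strand): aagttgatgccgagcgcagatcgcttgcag

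Such a run stood at an annotated start of 47 of the 68 members that have an entry (69.1%), against 1404 of 27305 genes (5.14%). Of the copies shown, RPL22L1 held it and RPL7L1, RPL26L1 and RPS27L did not. RPL6 and RPL26L1 have 2 entries each, and neither entry held a run. A start annotated a few bases away from the true one hides a run, so its absence says only that these letters do not begin at this base.

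Levels were compared per length, and the order depended on the transcript chosen. At the median length of its coding transcripts RPLP1, a stalk protein that recruits elongation factors, stood at 6109 CPM per kilobase (mean of the 12 pools), above RPL13A (5850), RPS2 (5411) and RPL8 (4290). Single pools of RPLP1 ran from 2697 to 14376 CPM per kilobase, and those of RPL13A from 3587 to 8798. The ranges of these 4 genes overlapped, but all were read in the same pools, so overlap does not test their order. By group mean, RPL13A and RPS2 were above RPL8 in every group. RPLP1 was above RPL13A in control OVCAR3 (9561 against 7200) and HCQ-evolved OVCAR3 (7013 against 6477). It was below RPL13A in control CCL218 (4780 against 5415) and HCQ-evolved CCL218 (3081 against 4307). With the longest transcript as length, RPLP1 ranked 13. With the canonical transcript it ranked 17 and RPL13A ranked 1.

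Together the 85 genes took 16.5, 10.6 and 15.0% of all counts in control OVCAR3 pools L, M and R, and 12.3, 14.0 and 6.95% in HCQ-evolved OVCAR3 pools. In CCL218 their share was 13.7, 8.28 and 9.07% in control pools and 8.55, 7.58 and 7.07% in HCQ-evolved pools. The lowest share of OVCAR3 was in HCQ-evolved R and the highest of CCL218 in control L, and pools of control and HCQ-evolved cells overlapped in both lines. Group means were 14.0% ± 3.07 and 11.1% ± 3.67 in OVCAR3, and 10.3% ± 2.91 and 7.73% ± 0.754 in CCL218 (SD, n = 3). The differences were -2.96 percentage points in OVCAR3 and -2.61 in CCL218. They are given as a description, since the members were chosen with earlier results known. They shrank to -0.90 without HCQ-evolved OVCAR3 R and to -0.94 without control CCL218 L.

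**Figure D1:**
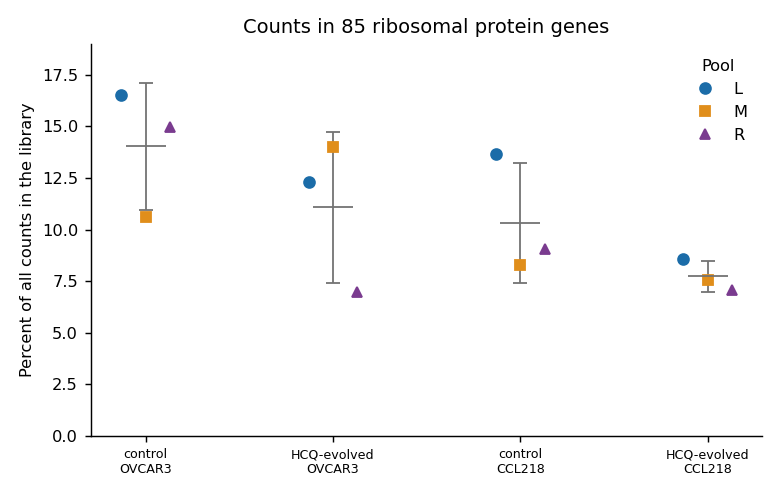
Percent of each library's counts in the 85 ribosomal protein genes, for pools L, M and R of the 4 groups; grey bars give the mean and SD of 3 pools. Shares run from 6.95% in HCQ-evolved OVCAR3 R to 16.5% in control OVCAR3 L, and each HCQ-evolved group overlaps its control group.

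Members varied together across pools. Leaving out the paralog copies and 6 genes under 15 CPM, 71 members remained. On the log2 CPM scale, 91.9% of their variance around line means lay on 1 component, on which control CCL218 L (0.50) and control OVCAR3 L (0.41) had the highest scores and HCQ-evolved OVCAR3 R (-0.62) the lowest. In HCQ-evolved OVCAR3 R all 71 were lower than the mean of L and M, at a median ratio of 0.461.

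Pool L of the controls stood apart gene by gene. In control CCL218, 67 of the 71 were higher in L than in the mean of M and R (median 1.85-fold, range 0.766 to 2.53), and in control OVCAR3 64 of 71 (median 1.53-fold). Across the 71 genes the L ratios of the 2 lines had a Spearman's rho of 0.97, against 0.86 across 12533 other tested genes, as a description with no test. The points of a line share its 3 libraries.

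RPLP1 was 2.09 times higher in L in OVCAR3 and 2.49 times in CCL218, and RPLP2, its partner in the stalk, 1.88 and 2.42 times. RPLP0, which anchors both to the ribosome, was at 0.951 and 1.04. RPL21 (0.835 and 0.766), RPL10A (0.746 and 0.864) and RPS27A (0.678 and 0.824), which is made as a fusion with ubiquitin, were lower in L in both lines. L ratios of CCL218 were weakly related across the 71 genes to GC content (rho 0.18), canonical transcript length (0.09) and mean CPM (0.07). With the median length of coding transcripts instead, the rho was -0.17. Each of these 2 libraries enters the difference of its own line below as a control, and both enter the comparisons between lines.

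**Figure D2:**
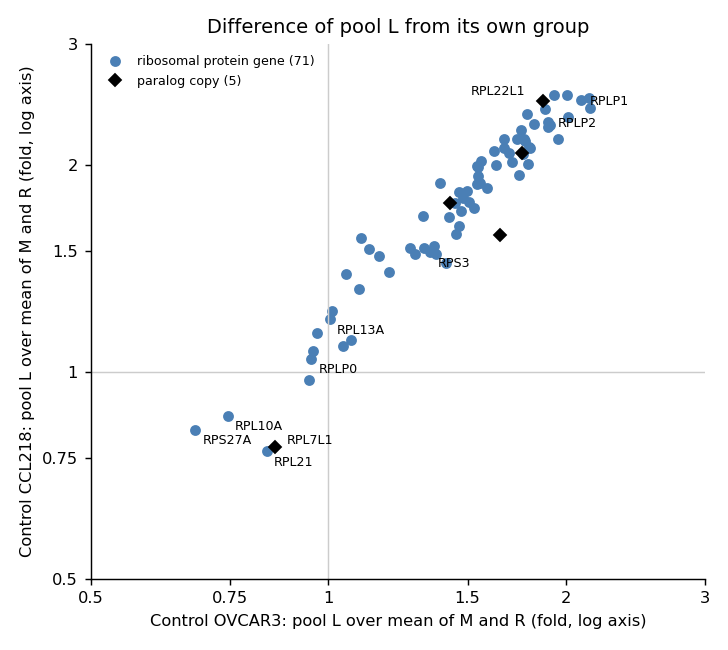
Ratio of control pool L to the geometric mean of pools M and R in OVCAR3 (horizontal) and CCL218 (vertical), both on log axes, for 71 ribosomal protein genes (blue) and 5 paralog copies (black). Points follow a diagonal, from RPS27A, RPL10A, RPL21 and RPL7L1 below 1 in both lines to RPLP1 above 2 in both.

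In OVCAR3, no ribosomal protein gene passed the test between HCQ-evolved and control pools. Of 80 tested, 0 were lower and 0 were higher at an adjusted p under 0.05 (edgeR quasi-likelihood test, Benjamini-Hochberg), where 1.21% of all 12204 genes were lower and 0.647% higher. None had an unadjusted p under 0.05 either, against 7.87% of all genes lower and 8.38% higher, and DESeq2 called none, where it called 4.62% of all genes lower. Log2 fold changes were mostly slightly negative, with 74 of 80 below 0 (48.4% of all genes) and a median of -0.34 (0.02 over all genes). Medians of the large and small subunit genes were -0.37 and -0.31. Pools did not overlap for 1 member, the lower RPL7L1, against 12.7% of all genes lower and 13% higher. The median was -0.06 without HCQ-evolved OVCAR3 R, and -0.17 without control L.

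RPL37 had the lowest log2 fold change in OVCAR3. It was at 3033, 1284 and 2158 CPM in control pools L, M and R and at 1440, 1712 and 655 CPM in HCQ-evolved pools, which overlapped (log2 fold change -0.75, SE 0.42, adjusted p = 0.437, edgeR). RPL4 (-0.70) and RPL5 (-0.70), which carries the 5S RNA, came next. RPL5 stood at 3311, 1712 and 2629 CPM against 1699, 2005 and 964, and RPL11, its partner in the 5S particle, had -0.51. RPS19, the small subunit protein most often mutated in Diamond-Blackfan anaemia, had -0.21 and RPS6, the target of S6 kinase, -0.49. The smallest adjusted p of all members was 0.368 (RPL4, edgeR). RPL6, named after its values were seen, passed after a length and GC trend was removed from each library (-0.62, adjusted p = 0.0485, edgeR), where 3.67% of all genes were lower.

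RPL21 had the highest log2 fold change of the members in OVCAR3. It lies on chromosome 13 (27251362 to 27256691, plus strand, GENCODE 44 on hg38) and is a large subunit protein. Control pools stood at 1631, 1484 and 2569 CPM and HCQ-evolved pools at 2884, 3786 and 1762 CPM. HCQ-evolved L and M were above all controls, while R, the pool in which all 71 members were low, fell among them. Its log2 fold change was 0.58 (SE 0.35, adjusted p = 0.461, edgeR). In all 15 alternatives it was above 0, from 0.32 to 0.86, without passing the test in any. RPL17 was also among the highest (0.16).

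In CCL218, no ribosomal protein gene passed the test either. Of 80 members, 0 were lower and 0 higher at an adjusted p under 0.05 (edgeR), where 2.64% of all 12241 genes were lower and 3.82% higher. At an unadjusted p under 0.05, 6 were lower (RPL21, RPS3, RPL6, RPL27A, RPL4 and RPL5) and 0 higher, against 12.7% and 12.5% of all genes. Log2 fold changes were below 0 for 76 of 80 (51.7% of all genes), with a median of -0.40 (-0.02 over all genes), -0.41 for the large and -0.39 for the small subunit. Pools did not overlap for 10 members, all lower, against 17.3% of all genes lower and 18.6% higher: RPL4, RPL5, RPL6, RPL7, RPL17, RPL21, RPL27A, RPS3, RPS7 and RPS10. Without control L the median was -0.09, with 62 of 80 below 0 (51.1% of all genes), and 5 members passed (RPL6, RPL7L1, RPL21, RPL27A and RPS3), where 11.6% of all genes were lower. With a replicate block for plate position, which treats same-position pools as pairs, 3 passed (RPL6, RPL27A and RPS3), where 6.43% of all genes were lower and 7.82% higher. DESeq2 called 4 lower (RPL6, RPL21, RPL27A and RPS3), where 8.72% of all genes were lower, and removing the length and GC trend left 2 (RPL6 and RPS3), against 9.74%. That removal moved the median from -0.40 to -0.24 (-0.22 together with the block), with 69 of 80 below 0.

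RPL27A was the lowest member in CCL218. Control pools L, M and R held 3639, 1588 and 1752 CPM, and HCQ-evolved pools held 1351, 1169 and 1092 CPM. The lowest control pool exceeded the highest HCQ-evolved pool (2327 ± 1140 against 1204 ± 133 CPM, SD, n = 3). Its log2 fold change was -0.96 (SE 0.32, adjusted p = 0.127, edgeR), and -0.85 with the replicate block (adjusted p = 0.0286). It was below 0 in all 15 alternatives and passed in 4 (adjusted p from 0.0103 to 0.390).

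RPS3, a small subunit protein that also serves in DNA repair, was at 3404, 2162 and 2405 CPM in control and 1961, 1679 and 1550 CPM in HCQ-evolved CCL218, with no overlap. Its log2 fold change was -0.62 (SE 0.21, adjusted p = 0.122, edgeR), and -0.60 with the replicate block (adjusted p = 0.0429). The other gene to pass under the block was RPL6, at 2464, 1336 and 1549 CPM in control and 1179, 1076 and 1013 CPM in HCQ-evolved pools. Its log2 fold change was -0.72 (SE 0.24, adjusted p = 0.124, edgeR) and -0.67 with the block (adjusted p = 0.0413). Over 15 alternatives RPS3 and RPL6 were always below 0 and passed in 5 each, with adjusted p from 0.0212 to 0.399 and from 0.0160 to 0.387.

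RPL10A, RPL39 and RPL41 were at the other end in CCL218, with log2 fold changes of 0.07, 0.07 and 0.10. RPL10A stood at 683, 759 and 824 CPM in control and 883, 784 and 711 CPM in HCQ-evolved pools, which overlapped. Of the stalk, RPLP2 had -0.75 (adjusted p = 0.246), RPLP1 -0.64 (0.327) and RPLP0 -0.15 (0.524, edgeR). RPSA, which also acts as a laminin receptor, had -0.13, RPS19 -0.38, RPS6 -0.53 and RPS27A -0.04. Across the 80 members the log2 fold changes of both lines had a rho of 0.72, against 0.61 across 11944 genes tested in both, and the points of each line share its 6 libraries.

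**Figure D3:**
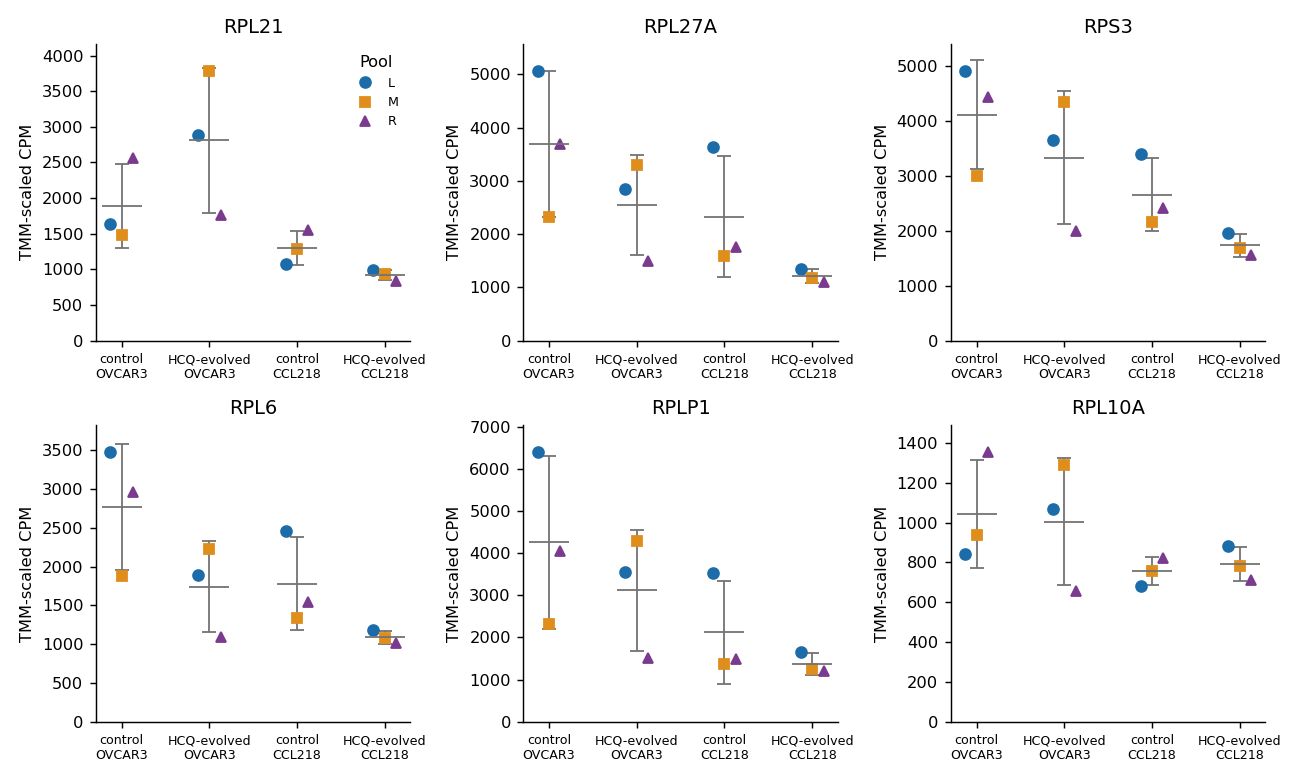
TMM-scaled CPM of RPL21, RPL27A, RPS3, RPL6, RPLP1 and RPL10A in pools L, M and R of the 4 groups, with mean and SD of 3 pools in grey. In CCL218 the control and HCQ-evolved pools do not overlap for RPL21, RPL27A, RPS3 and RPL6, while the pools of RPLP1 and RPL10A overlap.

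**Figure D4:**
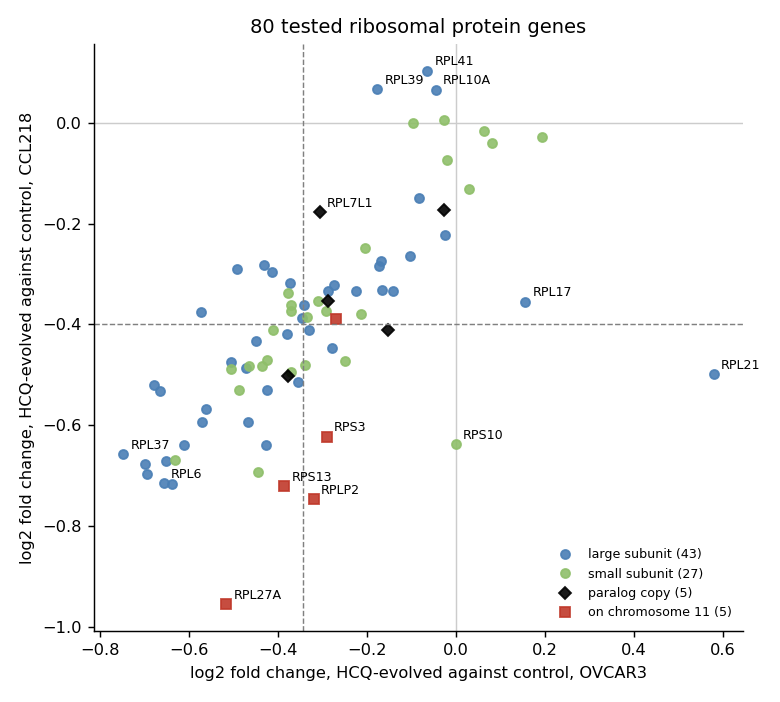
Log2 fold change of HCQ-evolved over control for 80 ribosomal protein genes in OVCAR3 (horizontal) and CCL218 (vertical); colours mark large and small subunit genes, paralog copies and the 5 genes on chromosome 11, and dashed lines mark the medians (-0.34 and -0.40). RPL21 lies alone at the right (0.58 and -0.50) and RPL27A at the bottom (-0.96).

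By chromosome, the 3 lowest members in CCL218 lie on chromosome 11. Its 5 members were RPL27A (-0.96), RPLP2 (-0.75), RPS13 (-0.72), RPS3 (-0.62) and RPS25 (-0.39), with a median of -0.72. The 700 other tested genes of chromosome 11 had a median of -0.21 in CCL218, the lowest of all chromosomes, and -0.00 in OVCAR3, where the 5 members had -0.32. The chromosome 11 median of the members was below that of all members in all 15 alternatives, by 0.16 to 0.37. Chromosomes were compared after the values were seen, and copy number was not tested here. From single-cell RNA of cells processed in parallel, the authors inferred selected losses of chromosomes 11 and 13 and gains of 6 and 22 in CCL218. In OVCAR3 they inferred selected gains of chromosomes 7, 13 and 22.

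RPS13 held 844, 358 and 418 CPM in control and 380, 326 and 279 CPM in HCQ-evolved CCL218 pools, and RPLP2 held 1837, 730 and 792 against 768, 649 and 592 CPM. Pools overlapped for both. Around RPLP2, near the end of the short arm, the 10 nearest tested genes were all below 0 in CCL218 (median -0.70, range -0.98 to -0.35), over 0.168 Mb. Around RPS13 all 10 were below 0 as well (median -0.41). Neighbours of RPL27A had a median of -0.08 and those of RPS3 -0.17, above the values of the genes themselves.

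On chromosome 6 in CCL218, the 5 members had a median of -0.18 and the 524 other genes 0.11. RPL10A (0.07) and RPS12 (-0.02) were highest and RPS10 (-0.64) lowest. The middle value was that of the paralog copy RPL7L1. The rows of RPS10 (3.15 CPM on average) and RPS18 (2.73 CPM) were nearly empty, so their values are uncertain. In CCL218 the chromosome 6 median of the members was 0.22 above that of all members, and 0.02 below it without control CCL218 L. In OVCAR3 it was -0.05, which was 0.30 above that of all members, and the 519 other genes had 0.04. Chromosome 13 holds RPL21 alone, and its other genes had a median of 0.15 in OVCAR3 and -0.18 in CCL218. The 10 nearest tested genes of RPL21 had medians of 0.09 in OVCAR3 and -0.54 in CCL218, over 1.07 Mb, where they ran from -1.27 to 1.54 with 6 of 10 below 0. Over the 16 chromosomes with at least 2 members, the rho between member medians and medians of the other genes was 0.38 in CCL218 and 0 in OVCAR3, as a description.

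**Figure D5:**
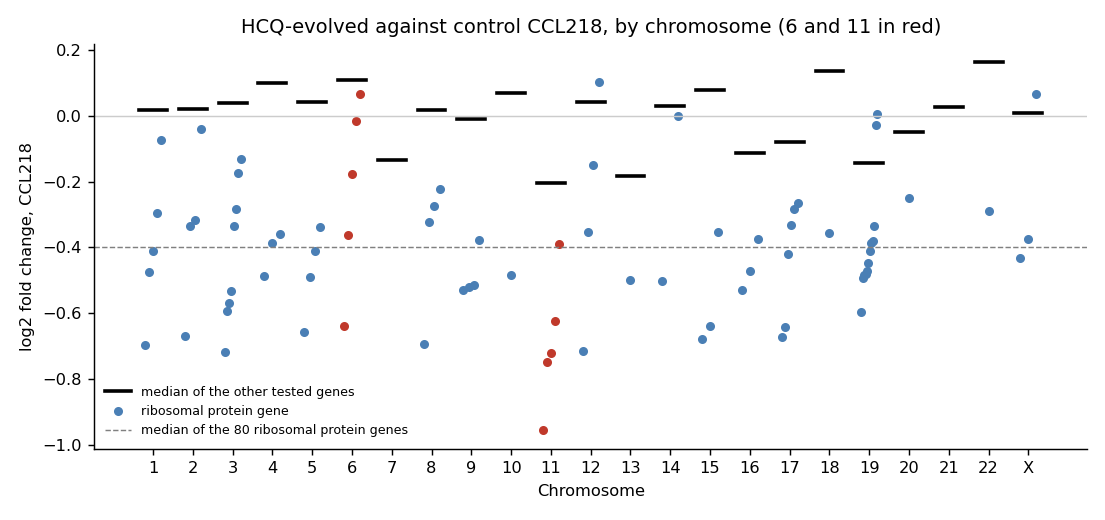
Log2 fold change of HCQ-evolved over control CCL218 for each ribosomal protein gene (points, chromosomes 6 and 11 in red) by chromosome, with the median of the other tested genes of that chromosome (black bars) and the median of the 80 members (dashed, -0.40). On chromosome 11 the members have a median of -0.72 and the other genes -0.21.

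The change in CCL218 was then set against the change in OVCAR3 as an interaction over all 12 libraries. Of 80 members, 0 differed lower and 0 higher (edgeR), where 0.182% of 12613 genes were lower and 0.69% higher. At an unadjusted p under 0.05, 1 member differed, RPL21, against 3.7% of all genes lower and 5.41% higher, and DESeq2 called none. The log2 fold changes of RPL21 were 0.58 and -0.50, neither past the test, and their difference was -1.06 (SE 0.41, adjusted p = 0.379, edgeR). It was below 0 in all alternatives, without passing in any. RPS10 (-0.62, adjusted p = 0.922) and RPL17 (-0.50, 0.942) followed, both at under 15 CPM. Of the 80 differences 51 were below 0 (53.7% of all genes). The median difference of the members was -0.03, as was that of all genes, and its sign varied with the pool left out (-0.32 to 0.30) and was positive with the trend removed (0.04) or the block (0.08).

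Control pools of both lines, passaged without drug, were compared with each other. Without pairing, 0 of 80 members were lower and 0 higher in control CCL218 (edgeR), where 1.1% of 12324 genes were lower and 0.949% higher. At an unadjusted p under 0.05, 9 were lower and 0 higher, against 6.52% and 5.75%, and DESeq2 called RPL41 and RPS29, where 3.42% of all genes were lower. Nonetheless 79 of 80 log2 fold changes were below 0 (48.4% of all genes), with a median of -0.58 (0.01 over all genes), and pools did not overlap for 9 members, all lower, against 9% of all genes lower and 8.62% higher. With the length and GC trend removed the median was -0.33, and 0 members were lower, where 2.44% of all genes were.

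With a replicate block for plate position, 73 of the 80 members were lower in control CCL218 and 0 higher, where 17.9% of all genes were lower and 18.1% higher. Same-position pools of the 2 lines deviated together, with correlations of 0.865 (L), 0.831 (M) and 0.254 (R) across genes. Pairing was judged from these correlations alone, so the calls under the block hold only if positions pair. Across genes other than members, rho with transcript length in OVCAR3 and CCL218 was -0.35 and -0.50 (L), 0.52 and 0.46 (M), and -0.40 and 0.04 (R). The members' share of counts was lower in CCL218 at each position, by L (13.7 against 16.5%), M (8.28 against 10.6%) and R (9.07 against 15.0%). With the block and the length and GC trend removed, an alternative added after seeing the data, the median was -0.32 against -0.61 with the block alone, and 62 were lower and 1 higher (RPL17), where 17.2% of all genes were lower and 15.6% higher.

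RPL41, the shortest ribosomal protein, was at 609, 466 and 729 CPM in control OVCAR3 and 367, 331 and 342 CPM in control CCL218, with no overlap. Its log2 fold change was -0.79 (SE 0.21, adjusted p = 0.137, edgeR; 2.25e-04 with the block). RPS29 (-0.77) and RPL39 (-0.82), which lines the exit tunnel, followed, with adjusted p of 0.195 and 0.263 (edgeR) and 3.37e-04 and 2.13e-04 with the block. RPLP1 was the lowest at -0.99 (adjusted p = 0.465, edgeR; 1.19e-04 with the block).

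Most paralog copies were far below their partners per length. RPL36AL stood above its partner, at 182 CPM per kilobase against 0.511 for RPL36A, but the RPL36A row was nearly empty (0.389 CPM on average). The level of RPL36A is uncertain, so this pair cannot be compared. RPL22L1 stood at 89.5 against 1210 for RPL22, RPS27L at 65.2 against 1975 for RPS27, RPL7L1 at 47.1 against 2100 for RPL7, and RPL26L1 at 28.6 against 1675 for RPL26. RPL3L, a copy of heart and skeletal muscle, was at 0.132 against 2263 for RPL3. RPL39L, known from testis, had 0 to 2 counts in every pool, below the floor of 3 counts, and RPL10L had 0, while RPL39 stood at 1638 CPM per kilobase. Near-identical copies share reads, so how counts divide within a pair is uncertain.

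RPL7L1, a copy that acts in ribosome assembly, varied least across pools among the tested members. Control OVCAR3 pools held 175, 202 and 206 CPM, HCQ-evolved OVCAR3 pools 153, 165 and 149, control CCL218 pools 161, 200 and 213, and HCQ-evolved CCL218 pools 167, 166 and 176 CPM. In HCQ-evolved OVCAR3 it was lower in every pool (-0.31, SE 0.16, adjusted p = 0.404, edgeR). Its SD over 12 pools was 0.18 on the log2 scale, against 0.34 for RPL10A and 0.83 for RPLP1. RPL22L1 varied like the core genes, from 24.1 to 87.5 CPM, with an L ratio of 2.48 in control CCL218, and it did not pass in either line (-0.03 and -0.17, adjusted p = 0.985 and 0.792, edgeR). Members with and without a run of C and T at the start had median log2 fold changes of -0.33 (46 genes) and -0.37 (20 genes) in OVCAR3, and -0.42 and -0.37 in CCL218.

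Ribosomal proteins listed under other names were below 0 as well. RACK1, a signalling scaffold of the small subunit, was at 4264, 2408 and 2954 CPM in control and 2123, 2286 and 1374 CPM in HCQ-evolved OVCAR3, with no overlap (-0.72, SE 0.30, adjusted p = 0.288, edgeR), and had -0.56 in CCL218. FAU, made as a fusion with a ubiquitin-like protein, had -0.32 and -0.72. Neither gene passed in either line.

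The tested members that are mutated in Diamond-Blackfan anaemia, 19 of the 80, had medians of -0.35 and -0.38, near those of all 80 members (-0.34 and -0.40).

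Of 12 dedicated chaperones and assembly factors of ribosomal proteins, none passed in either line. Of all genes, 1.21% were lower and 0.647% higher in OVCAR3, and 2.64% and 3.82% in CCL218. At these shares, 0 calls in a list this short do not set it apart from other genes. Medians of the 12 were -0.23 in OVCAR3 and -0.26 in CCL218, and all 12 were below 0 in CCL218 (51.7% of all genes). LTV1, which acts in small subunit maturation, had -0.59 in CCL218 (adjusted p = 0.105), and NOB1, the nuclease that finishes 18S rRNA, -0.48 in OVCAR3 (0.232, edgeR). Of 9 elongation factors tested, none passed, beside the same shares of all genes. EEF1A2, a form of muscle and neurons, was at 289, 187 and 230 CPM in control and 513, 550 and 362 CPM in HCQ-evolved OVCAR3 (1.03, SE 0.23, adjusted p = 0.0734, edgeR), and EEF1B2 had the smallest p in CCL218 (-0.50, adjusted p = 0.103).

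Among 29 initiation factors tested, 0 passed in OVCAR3, where 1.21% of all genes were lower and 0.647% higher. In CCL218, 1 was higher and 0 lower, where 3.82% and 2.64% of all genes were. EIF4A2, a helicase that opens the 5′ end of mRNAs, was at 437, 385 and 403 CPM in control CCL218. It was higher in HCQ-evolved CCL218, at 763, 788 and 609 CPM (0.81, SE 0.14, adjusted p = 0.0218, edgeR). The row of its paralog EIF4A1 held 0 CPM in every pool, so EIF4A2 cannot be set beside it, and the cause was not tested. EIF4E, the cap-binding factor, had the smallest p in OVCAR3 (0.53, adjusted p = 0.365, edgeR). Of 9 other TOP mRNAs none passed, beside the same shares of all genes, with medians of -0.24 and -0.29. CCNI had the smallest p in both lines and was above 0 (0.39 and 0.65, adjusted p = 0.507 and 0.120). None of 17 TOP regulators and mTORC1 genes passed either, and 0 calls in lists this short do not set them apart from other genes. The 17 had medians of -0.08 and -0.17, and TIA1, which binds TOP mRNAs in stress, had -0.35 and -0.55.

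Of 11 genes of the MYC network and of ribosomal protein surveillance, 1 was lower in OVCAR3 (1.21% of all genes), and 2 were higher and 1 lower in CCL218 (3.82% and 2.64% of all genes). CDKN1A, a cell cycle inhibitor that p53 induces when free RPL5 and RPL11 bind MDM2, was at 59.9, 66.2 and 69.2 CPM in control and 28.0, 21.5 and 26.2 CPM in HCQ-evolved OVCAR3 (-1.35, SE 0.19, adjusted p = 0.0218, edgeR). In CCL218 it rose from 19.6 ± 0.918 to 44.9 ± 6.42 CPM (SD, n = 3), with no overlap (1.19, SE 0.15, adjusted p = 0.00603, edgeR). The authors describe both lines as p53 mutant, and whether p53 had a part in these changes was not tested. MXI1 was higher (0.77, adjusted p = 0.0109) and MXD4 lower (-0.81, adjusted p = 0.0136) in CCL218, and both encode MYC antagonists. MYC itself, which drives ribosomal protein genes, was at 163, 357 and 373 CPM in control and 203, 168 and 182 CPM in HCQ-evolved OVCAR3 (-0.68, adjusted p = 0.356), and had -0.36 in CCL218 (0.559, edgeR).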

How the data were processed

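The authors aligned polyA-selected reads to hg38 with STAR, removed duplicates with RmDup and deposited counts per gene from featureCounts. Versions and settings on strand and multiply mapped reads are not given in the sources used here. Of entries of 1 to 4 counts, 78.9% were even, so a count may not be a single fragment. Removing duplicates can lower the counts of short, abundant genes such as these. Members, gene lists, the rule for naming genes and tests were chosen with earlier results of these data known. The rule named the 3 highest and lowest members per line, paralog pairs, stalk and 5S genes, RPSA, RPS19, RPS6, RPS27A, FAU and RACK1, the 5 highest per kilobase, the 3 smallest p in the interaction and between controls, and the listed genes that passed or had the smallest p. Some genes that the rule names are not reported here.

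A gene was tested in a line where 3 or more libraries reached 1 CPM, with the quasi-likelihood test of edgeR 4.0.16 in R 4.3.3 (TMM, robust, Benjamini-Hochberg over all genes tested, threshold 0.05), checked on simulated data. CPM printed are TMM-scaled over 12 libraries. DESeq2 1.42.0, limma 3.58.1 voom, other scalings, no filter, a length and GC trend, left-out pools and a replicate block were alternatives. The trend used the canonical transcripts of GENCODE 44 (25763 of 28278 symbols matched). Same-position pools correlated at 0.542, 0.270 and 0.227 (L, M, R) in CCL218 and at 0.422, -0.692 and -0.500 in OVCAR3. All correlations were above 0 in CCL218 and between controls, but not in OVCAR3. Whether positions pair was thus judged from these same data, and some of the correlations were weak. Columns without a sample numbered 0.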

Additional observations from a re-analysis of the deposited data

Results flagged for a closer look

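For 3 genes of the lists read beside the members, the change in CCL218 differed from the change in OVCAR3 by the interaction test of edgeR over all 12 libraries. CDKN1A differed by 2.56 on the log2 scale (SE 0.22, adjusted p = 5.39e-04) and passed in all 20 alternatives (2.44 to 2.64). CDH17, an intestinal cadherin from the colorectal markers, differed by 3.71 (SE 0.50, adjusted p = 0.00555), at 44.9 to 57.4 CPM in HCQ-evolved CCL218 and at most 4.87 CPM in every other pool, and passed in all 20 alternatives. CEACAM5, from the same marker list, differed by 2.07 (SE 0.38, adjusted p = 0.0325) and passed in 7 of 20 alternatives. No ribosomal protein gene passed this test.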

How the results depend on the processing

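The medians of the members kept their sign in each line and between controls, while that of the interaction did not. Left-out pools gave medians of -0.59 to -0.06 in OVCAR3, -0.57 to -0.09 in CCL218, -0.32 to 0.30 in the interaction and -0.94 to -0.38 between controls, where removal of the length and GC trend gave -0.33 and block with trend -0.32. Counts of members past the threshold, 0 in each comparison, became 1 in OVCAR3 after removal of the length and GC trend. In CCL218 they became 4 with DESeq2, 2 with that trend removed, 3 with the replicate block, 3 with both and 0 to 5 with a pool left out. Between controls they became 2 with DESeq2, 73 with the replicate block and 63 with block and trend. Same-position OVCAR3 pools did not all deviate together, and the block called 0 in OVCAR3 and 0 in the interaction. RPL17 between controls reversed to 0.37 with block and trend removed, and the cause was not tested. Of 3328 values of named genes under alternatives, 260 had another sign. Counting error is largest for the core genes under 15 CPM.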

Other observations

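The rows of some core ribosomal protein genes were nearly empty. On average over the 12 pools RPL36A had 0.389 CPM, RPS18 2.73, RPS10 3.15, RPL17 7.45 and RPS9 8.40 CPM, while 71 core members had between 182 (RPS29) and 6593 CPM (RPL13A). The levels and fold changes of the nearly empty rows are uncertain, RPL17 and RPS10 in the interaction included.

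Around some of these genes other rows were low too. Of the 10 nearest protein-coding rows, 8 averaged under 1 CPM beside RPS9, 7 beside RPS18, 6 beside RPL36A, 3 beside RPS10 and 2 beside RPL17, against 40.7% of 19030 protein-coding rows. Those beside RPS9 included LILRB2, LILRB3, LILRB5, LILRA5 and LILRA6. Genes that are silent in these cell types were not set apart, so the counts do not show that a region was emptied. One of the low rows beside RPS18 was DAXX, which averaged 0.218 CPM. Elsewhere on that chromosome TUBB, the main beta-tubulin, averaged 0.512 CPM, and on chromosome 19 PRPF31, a splicing factor, averaged 0.182 CPM. Readthrough rows that span RPL17 and RPL36A had 0 counts in every pool, and the row spanning RPS10 had 0 to 4. The 31 ribosomal protein pseudogene rows summed to 157 CPM, against 110241 CPM for the members. TUBB, DAXX and PRPF31 were chosen after their values were seen, and the cause of the low rows was not tested.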
